A study of Mus musculus with 12 samples.

Results

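Dbp, Tef and Hlf encode the 3 PAR bZIP transcription factors, which carry the rhythm of the circadian clock to genes of metabolism and detoxification. Nfil3 encodes a bZIP repressor, and Bhlhe40 and Bhlhe41 encode basic helix-loop-helix repressors. These 6 genes were taken by symbol, as every probe set to which the array's annotation gives 1 of the 6 symbols and no other. That gave 11 of 45037 probe sets and 6 of the 18193 genes with such a probe set. For each gene the probe set with the highest mean over all arrays leads, and the others serve as a check of it.

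The data are total RNA of 12 whole lungs of male C57BL/6 mice aged 8 to 12 weeks, each on 1 Affymetrix Mouse Genome 430 2.0 array. The mice were wild type or nmMLCK-/- (here the knockout), which lack the long, non-muscle form of myosin light chain kinase, a product of Mylk. Mice of each genotype either breathed spontaneously (SB) or received high tidal volumes from a ventilator for 4 h, which produces ventilator-induced lung injury (VILI). Each of the 4 groups has 3 arrays. The sample labels state 40 ml/kg for the tidal volume and the series text states 30 ml/kg; the ventilator ran at 65 breaths per min with the end-expiratory pressure set to 0 cm H2O. A low tidal volume was not used in any group, so its size cannot be told apart from ventilation and the procedure around it. For the deletion the labels name no Cre and no cell type. All mice were kept on a light-dark cycle of 12 h, and the labels give no hour at which lungs were taken. Any difference in that hour between groups therefore cannot be told apart from VILI or genotype.

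In the mammalian clock, CLOCK and ARNTL (BMAL1) bind E-boxes in DNA and switch on Dbp, Tef, Hlf and the Period and Nr1d genes, and the Period and Cryptochrome proteins then shut this off. DBP, TEF and HLF activate genes through a DNA element called the D-box, and NFIL3 binds the same element as a repressor, so the PAR bZIP factors and NFIL3 have opposite effects and usually peak at opposite times of day. NR1D1 and NR1D2 repress Nfil3 and Arntl through ROR elements. BHLHE40 and BHLHE41 compete at E-boxes and are also induced by hypoxia and other stress.

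The genes lie on 5 mouse chromosomes. On GRCm38.p6, Dbp spans chr7:45705100-45710203, Tef chr15:81802673-81826863, Hlf chr11:90336535-90390917, Nfil3 chr13:52967209-52982878, Bhlhe40 chr6:108660629-108666925 and Bhlhe41 chr6:145858243-145865420. RefSeq windows of 250 bases before to 50 bases after a transcript start were at hand for 5 of the 6 genes, 6 windows in all. They were searched on both strands for the E-box CACGTG, the D-box words TTATGTAA and TTACGTAA, the ROR element core TAGGTCA and the cyclic AMP response element TGACGTCA; none of these words contains another. The windows shown are those of the genes that changed under VILI and hold 1 of the words. E-boxes were named above for Tef and ROR elements for Nfil3, while the cyclic AMP response element in Hlf is only 1 of the words searched. Each is the 250 bases before the start, on the strand of the gene, with the word in capitals. The second Tef start and the Nfil3 start lie inside the annotated gene. So does the start of the Dbp window, chr7:45704997-45705246 on the plus strand, which is not shown.
Tef, chr15:81802423-81802672, plus strand: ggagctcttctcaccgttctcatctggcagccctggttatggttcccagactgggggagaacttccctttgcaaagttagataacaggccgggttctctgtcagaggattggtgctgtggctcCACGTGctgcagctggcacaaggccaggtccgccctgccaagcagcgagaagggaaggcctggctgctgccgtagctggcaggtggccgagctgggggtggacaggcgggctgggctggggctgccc
Tef, chr15:81811164-81811413, plus strand: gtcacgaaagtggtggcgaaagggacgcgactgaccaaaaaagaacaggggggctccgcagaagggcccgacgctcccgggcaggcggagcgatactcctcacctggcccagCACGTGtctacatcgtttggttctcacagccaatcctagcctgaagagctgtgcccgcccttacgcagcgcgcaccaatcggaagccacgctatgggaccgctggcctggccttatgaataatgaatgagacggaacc
Hlf, chr11:90390918-90391167, minus strand: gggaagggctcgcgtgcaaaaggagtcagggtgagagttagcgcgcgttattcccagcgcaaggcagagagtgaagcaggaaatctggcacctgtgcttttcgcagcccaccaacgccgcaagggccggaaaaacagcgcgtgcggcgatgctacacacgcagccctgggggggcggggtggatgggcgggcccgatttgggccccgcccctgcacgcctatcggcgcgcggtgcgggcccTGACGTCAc
Nfil3, chr13:52981040-52981289, minus strand: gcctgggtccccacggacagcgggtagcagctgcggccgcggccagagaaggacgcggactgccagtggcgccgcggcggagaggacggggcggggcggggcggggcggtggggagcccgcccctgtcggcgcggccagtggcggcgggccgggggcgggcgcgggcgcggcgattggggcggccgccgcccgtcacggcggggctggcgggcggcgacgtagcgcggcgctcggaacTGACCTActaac
The E-box stands at -127 and -138 in the Tef windows, counted from the start to the first base of the word, and 7.15% of all 32851 windows hold an E-box. The cyclic AMP response element stands at -9 in Hlf, in the window directly before the gene, and 1.79% of all windows hold it. In Nfil3 the ROR element core stands at -12, read on the opposite strand as TGACCTA, and 2.61% of windows hold it. Bhlhe41 has an E-box at -153. No D-box was found in these windows, against 1.06% of all windows, and the Dbp window holds none of the words. A word found is a description of the sequence and does not show that a protein binds there.

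Values are log2 signals normalized by the authors, so a difference of 1 is a doubling of the signal. Between groups they were compared with limma in 1 model of the 4 group means, with Benjamini-Hochberg adjustment over 12309 genes. These are the genes with a probe set whose mean passed a log2 signal of 3.056, the 40th percentile of all probe sets. A gene was called at an adjusted p under 0.05. Of the members, 5 genes with 9 probe sets passed this filter, and Bhlhe41 with 2 probe sets did not.

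The arrays correlated at 0.9806 to 0.9979 over all probe sets. Lung cell markers were present in every group: the summed signal of the club cell markers lay between 16.94 and 17.06 and that of the alveolar type 2 markers between 16.25 and 16.41, while 0 of 3 liver and 0 of 3 thymus markers passed the filter. Of the skeletal muscle markers 3 of 3 passed it. Their sums were 6.65 to 6.96 in wild-type SB, 7.52 to 8.39 in wild-type VILI, 5.89 to 7.36 in knockout SB and 7.83 to 8.69 in knockout VILI. Acta1 alone of these markers was higher under VILI without overlap in both genotypes. Ckm overlapped between SB and VILI in both genotypes, and Myh4 stayed near the filter level in all arrays. The higher sums under VILI are thus not shared by all of the muscle markers. The 3 probe sets of Mylk had group means of 5.98, 12.81 and 13.004 in wild-type SB, 5.57, 12.79 and 12.86 in wild-type VILI, 5.01, 12.12 and 12.78 in knockout SB and 4.83, 12.64 and 12.72 in knockout VILI. The labels do not say where these probe sets lie relative to the deletion, so they do not check the genotype. Under SB, wild-type replicate 3 and knockout replicate 2 stood apart. The median of 10 glucocorticoid response genes, each relative to its own mean, was -0.78 and -1.14 in them, against -0.08 to 0.26 in the other SB arrays and 0.19 to 0.37 in the VILI arrays. Results for the members are given below with and without this pair.

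Under VILI every tested member differed from SB in wild-type lungs, down for the PAR bZIP activators and up for the repressors. Dbp fell 9.74-fold, Hlf 3.22-fold and Tef 2.03-fold, while Nfil3 rose 16.4-fold and Bhlhe40 1.86-fold. Thus 3 of 5 tested members fell, where 9.03% of all genes did, and 2 rose, where 6.34% did; 15.4% of all genes were called in either direction. Those shares are 1112 and 780 genes, or 839 and 926 with the array medians set equal. In the knockout, Dbp fell 4.99-fold, Nfil3 rose 17.2-fold and Bhlhe40 rose 1.52-fold, whereas Tef and Hlf did not pass the test. The Nfil3 rise of 4.10 on the log2 scale was 3.42 without knockout SB replicate 2, and the Bhlhe40 call was lost in 13 of 24 alternatives. In the knockout 1 of 5 members was thus called lower, against 12.6% of all genes, and 2 were called higher, against 8.12%; 20.7% were called in either direction. In whole lung, fewer cells of a type and less RNA per cell cannot be told apart.

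**Figure D1:**
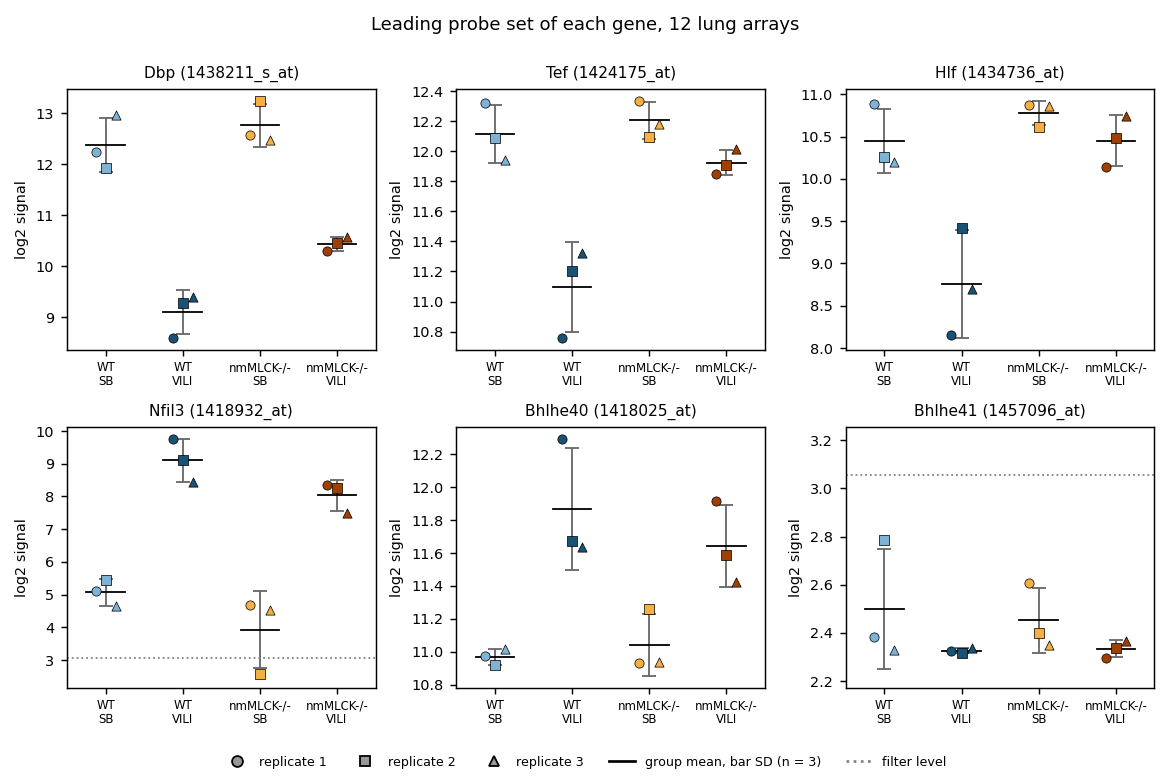
Log2 signal of the leading probe set of each of the 6 genes in the 12 arrays, by group; symbols are replicates, horizontal bars group means and error bars SD (n = 3), and the dotted line is the filter level. Dbp lay between 8.60 and 9.40 in wild-type VILI and between 10.30 and 10.57 in knockout VILI, Tef and Hlf were low in wild-type VILI, and Nfil3 rose in both genotypes.

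Dbp, the PAR bZIP gene with the steepest rhythm in many tissues, had log2 signals of 12.25, 11.92 and 12.97 in wild-type SB and 8.60, 9.29 and 9.40 in wild-type VILI (probe set 1438211_s_at). In the knockout it had 12.57, 13.25 and 12.48 under SB and 10.30, 10.46 and 10.57 under VILI. All VILI arrays lay below all SB arrays, and the wild-type VILI arrays lay below the knockout VILI arrays. The VILI difference was -3.28 ± 0.30 (SE, n = 3 arrays per group throughout) in wild type, with an adjusted p of 0.000264, and -2.32 ± 0.30 in the knockout, with an adjusted p of 0.00139. This was the 5th largest fall of the 12309 genes in wild type and the 12th in the knockout. The second probe set, 1418174_at, had 11.15, 10.76 and 11.75 in wild-type SB, 6.07, 8.37 and 8.03 in wild-type VILI, 10.91, 12.03 and 11.16 in knockout SB and 9.13, 9.23 and 9.03 in knockout VILI. Its groups were in the same order, and it fell by 3.73 ± 0.53 in wild type and by 2.24 ± 0.53 in the knockout, with adjusted p-values of 0.00312 and 0.0208. The latter call was lost without knockout SB replicate 2 (adjusted p = 0.0780), knockout VILI replicate 2 (0.0611) or knockout VILI replicate 3 (0.0579).

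Tef, the thyrotroph embryonic factor, had 12.32, 12.09 and 11.94 in wild-type SB and 10.76, 11.20 and 11.32 in wild-type VILI (probe set 1424175_at). In knockout SB it had 12.34, 12.10 and 12.18, and in knockout VILI 11.85, 11.91 and 12.02. The wild-type VILI arrays were the 3 lowest of the 12, and the knockout VILI arrays lay just under the knockout SB arrays and overlapped with wild-type SB. The difference was -1.02 ± 0.15 in wild type (adjusted p = 0.00246) and -0.28 ± 0.15 in the knockout (adjusted p = 0.203; 95% interval -0.62 to 0.05). The other 2 Tef probe sets did not follow this in the same way. At 1438033_at wild-type SB had 11.33, 10.93 and 9.997, wild-type VILI 9.16, 9.67 and 9.75, knockout SB 10.58, 9.76 and 11.50 and knockout VILI 11.07, 10.99 and 10.94. Wild-type VILI held the 3 lowest values, with knockout SB replicate 2 just above them, and neither VILI difference passed the test, at -1.22 ± 0.42 in wild type (adjusted p = 0.0905) and 0.38 ± 0.42 in the knockout (adjusted p = 0.548). The wild-type difference was called without wild-type SB replicate 3 (-1.60, adjusted p = 0.0393), without knockout SB replicate 2 (-1.22, adjusted p = 0.0487) and with array weights (-1.74, adjusted p = 0.000586). At 1450184_s_at wild-type SB had 9.995, 10.22 and 9.96, wild-type VILI 8.62, 7.67 and 8.75, knockout SB 8.99, 10.25 and 9.80 and knockout VILI 8.96, 8.10 and 6.93. Both genotypes were lower under VILI at this probe set, by nearly the same amount: -1.71 ± 0.49 in wild type (adjusted p = 0.0503) and -1.68 ± 0.49 in the knockout (adjusted p = 0.0423). Over 22 alternatives the wild-type difference was called in 8 and the knockout difference lost its call in 13, with an adjusted p of up to 0.145 without knockout SB replicate 2.

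Hlf, the hepatic leukemia factor, had 10.88, 10.25 and 10.20 in wild-type SB and 8.16, 9.42 and 8.70 in wild-type VILI (probe set 1434736_at). The knockout had 10.87, 10.62 and 10.86 under SB and 10.14, 10.48 and 10.74 under VILI. Wild-type VILI was below every other array, and the knockout groups overlapped. The VILI difference was -1.69 ± 0.30 in wild type (adjusted p = 0.00571) and -0.33 ± 0.30 in the knockout (adjusted p = 0.453; 95% interval -0.99 to 0.33). The dimmer probe set 1434735_at had 6.63, 5.70 and 7.14 in wild-type SB, 3.98, 4.33 and 4.30 in wild-type VILI, 6.85, 7.79 and 6.99 in knockout SB and 5.33, 5.38 and 5.49 in knockout VILI. There the VILI arrays of both genotypes lay below all SB arrays. It fell by 2.29 ± 0.34 in wild type (adjusted p = 0.00355) and by 1.81 ± 0.34 in the knockout (adjusted p = 0.00837). The probe sets of Hlf therefore differ on the knockout: the leading one was not called there and the other was. With the mean of both, Hlf differed by -1.07 in the knockout and was called at an adjusted p of 0.0137.

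**Figure D2:**
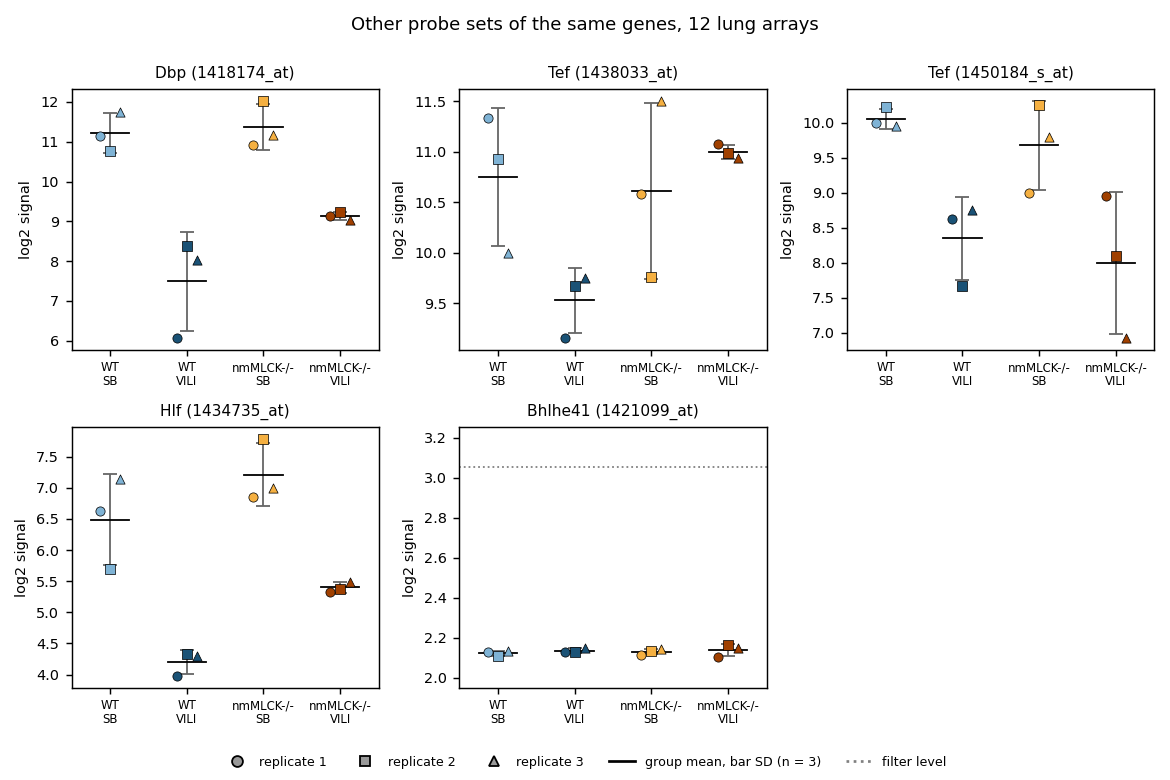
Log2 signal of the other probe sets of Dbp, Tef, Hlf and Bhlhe41 in the 12 arrays, by group; symbols are replicates, horizontal bars group means and error bars SD (n = 3), and the dotted line is the filter level. Knockout VILI lay above wild-type VILI at Dbp 1418174_at, Tef 1438033_at and Hlf 1434735_at and overlapped with it at Tef 1450184_s_at.

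Nfil3, whose protein represses through the D-box and is also needed for the development of innate lymphoid cells, was measured by 1 probe set, 1418932_at. Its log2 signals were 5.12, 5.46 and 4.64 in wild-type SB, 9.77, 9.11 and 8.44 in wild-type VILI, 4.69, 2.57 and 4.52 in knockout SB and 8.36, 8.25 and 7.49 in knockout VILI. Every VILI array lay above every SB array, and wild-type VILI lay above knockout VILI. Knockout SB replicate 2, at 2.57, was under the filter level, where differences between dim signals are compressed. Nfil3 rose by 4.03 ± 0.54 in wild type (adjusted p = 0.00157) and by 4.10 ± 0.54 in the knockout (adjusted p = 0.00147), the 9th and the 12th largest rise of the 12309 genes. Without knockout SB replicate 2 the rise in the knockout was 3.42 (adjusted p = 0.00196).

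Bhlhe40, the E-box repressor also called DEC1, had 10.97, 10.92 and 11.02 in wild-type SB, 12.30, 11.67 and 11.63 in wild-type VILI, 10.93, 11.26 and 10.94 in knockout SB and 11.92, 11.59 and 11.42 in knockout VILI (probe set 1418025_at). VILI arrays lay above SB arrays in both genotypes, and the genotypes overlapped under each condition. Bhlhe40 rose by 0.90 ± 0.19 in wild type (adjusted p = 0.0114) and by 0.60 ± 0.19 in the knockout (adjusted p = 0.0445). Omission of 1 array ended the second call in 8 of 12 fits, namely those without replicate 1 or 2 of wild-type SB, replicate 2 of wild-type VILI, any 1 replicate of knockout SB, or replicate 1 or 2 of knockout VILI. It was weakest without knockout VILI replicate 1, at 0.46 with an adjusted p of 0.140. Its relative Bhlhe41 (DEC2) stayed under the filter level in all arrays, at 2.30 to 2.79 for probe set 1457096_at and 2.10 to 2.16 for 1421099_at, and was not tested.

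Groups did not overlap between SB and VILI for 5 of 5 tested members in wild type, where 36% of all genes did not, and for 4 of 5 in the knockout, where 43.8% did not. All 7 probe sets of Dbp, Tef and Hlf had a lower mean under VILI in wild type. In the knockout 6 of the 7 did, the exception being Tef 1438033_at.

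Of the 4 other probe sets of these genes 2 were called in wild type and 3 in the knockout, where 11.4% and 17% of the 22443 tested probe sets were.

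The pair of SB arrays that stood apart was high at some probe sets and low at others. Among the 6 SB arrays, knockout replicate 2 and wild-type replicate 3 had the highest values at both Dbp probe sets, at Hlf 1434735_at and at Bhlhe40, and knockout replicate 2 had the lowest Nfil3. The same pair had the lowest values at Tef 1438033_at, and wild-type replicate 3 was lowest at the leading probe sets of Tef (11.94) and Hlf (10.20). Without both, the VILI differences in wild type were -2.99 for Dbp, -1.11 for Tef, -1.81 for Hlf, 3.82 for Nfil3 and 0.92 for Bhlhe40, all still called. In the knockout they were -2.08 for Dbp, 3.42 for Nfil3 and 0.71 for Bhlhe40, also called, and -0.34 for Tef and -0.41 for Hlf, not called. Dbp 1418174_at, at -1.91, and Tef 1450184_s_at, at -1.40, were no longer called in the knockout (adjusted p = 0.0579 and 0.132). Tef 1438033_at, at -1.60, was then called in wild type (adjusted p = 0.00938).

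Under SB no difference between the genotypes was detected in these genes with 3 arrays per group. The knockout differed from wild type by 0.38 ± 0.30 at Dbp, 0.09 ± 0.15 at Tef, 0.34 ± 0.30 at Hlf, -1.14 ± 0.54 at Nfil3 and 0.07 ± 0.19 at Bhlhe40. By limma 0 of 5 members were called, where 0.0487% of all genes were, and 0 had an unadjusted p under 0.05, where 3.74% did. The interval of the Nfil3 difference ran from -2.34 to 0.05, and without knockout SB replicate 2 that difference was -0.46. Groups overlapped for all 5 members, against 6.6% of genes that did not overlap.

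After VILI, the PAR bZIP genes had higher signals in the knockout than in wild type, but the differences did not pass adjustment over all genes. Hlf was higher by 1.69 ± 0.30 (3.23-fold, unadjusted p = 0.000177, adjusted p = 0.121), Dbp by 1.35 ± 0.30 (2.55-fold, unadjusted p = 0.00107, adjusted p = 0.286) and Tef by 0.83 ± 0.15 (1.78-fold, unadjusted p = 0.000231, adjusted p = 0.129). Each of these held in 3 of 3 knockout arrays against 3 of 3 wild-type arrays. Under VILI, Dbp 1418174_at differed by 1.64 ± 0.53, Tef 1438033_at by 1.47 ± 0.42 and Hlf 1434735_at by 1.20 ± 0.34, also without overlap, while Tef 1450184_s_at differed by -0.35 ± 0.49 with overlap. Of these 4 probe sets 0 were called by limma, where 0.0802% of all probe sets were, and under SB likewise 0, where 0.0401% were. Nfil3 was at -1.07 ± 0.54 in the knockout relative to wild type (adjusted p = 0.611) and Bhlhe40 at -0.22 ± 0.19 (adjusted p = 0.772).

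Thus 0 of 5 members were called between the genotypes under VILI, where 0.106% of all genes were, and 3 had an unadjusted p under 0.05, where 8.69% did. Groups did not overlap for 4 members, Dbp, Tef, Hlf and Nfil3, where 20.5% of genes did not overlap. By size, Hlf was 8th, Dbp 18th and Tef 65th among the 12309 genes in order of the knockout excess under VILI. These calls depend on how arrays are weighted. With limma's array weights, Hlf, Dbp and Tef were all called, at adjusted p-values of 0.00518, 0.00336 and 0.00378, and 852 genes in all were called instead of 13. The fit of these weights stopped short of its convergence tolerance. Without both SB arrays that stood apart, Dbp alone of the members was called, at 1.35 with an adjusted p of 0.0440, and 28 of all genes were called.

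**Figure D3:**
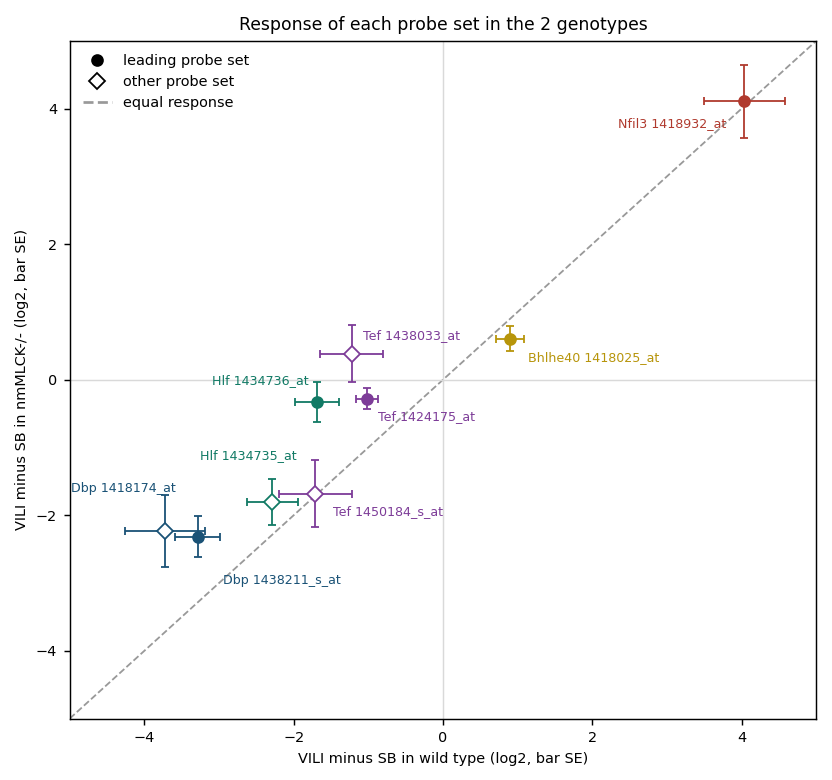
VILI minus SB in wild type (horizontal axis, log2) against VILI minus SB in the knockout (vertical axis, log2) for the 9 tested probe sets; bars are SE and the dashed line marks equal responses. Nfil3 (4.03 and 4.10) and Tef 1450184_s_at (-1.71 and -1.68) lie on the line, and the leading probe sets of Dbp, Tef and Hlf lie above it.

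The difference between the VILI responses, knockout minus wild type, asks whether the fall itself depended on the genotype. It was 1.36 ± 0.42 for Hlf (unadjusted p = 0.00874), 0.74 ± 0.21 for Tef (unadjusted p = 0.00574) and 0.96 ± 0.43 for Dbp (unadjusted p = 0.0459), with adjusted p-values of 0.867, 0.867 and 0.971. For Nfil3 it was 0.07 ± 0.76, with an interval from -1.62 to 1.76 that is too wide to show equal responses, and for Bhlhe40 -0.30 ± 0.26. By limma 0 of 5 members and 0% of all genes were called, and 3 members had an unadjusted p under 0.05, where 5.03% of genes, 619 of them, did. With array weights, whose fit stopped short of its convergence tolerance, 171 genes were called, Tef among them with an adjusted p of 0.0388. The other probe sets gave 1.49 ± 0.75 for Dbp, 1.61 ± 0.60 and 0.03 ± 0.69 for Tef and 0.48 ± 0.48 for Hlf, none of them called.

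Ordered by mean level, the 4 groups ran in the same order for Dbp and Tef and in the reverse order for Nfil3. Dbp was lowest in wild-type VILI (9.10 ± 0.44, SD), then knockout VILI (10.45 ± 0.14), and highest in wild-type SB (12.38 ± 0.54) and knockout SB (12.77 ± 0.42), which overlapped. Tef ran from wild-type VILI (11.10 ± 0.30) to knockout VILI (11.92 ± 0.08), wild-type SB (12.12 ± 0.19) and knockout SB (12.20 ± 0.12), where neighbours after the first overlapped. Hlf was at 8.76 ± 0.64 in wild-type VILI and then at 10.45 ± 0.38 in wild-type SB, 10.45 ± 0.30 in knockout VILI and 10.78 ± 0.14 in knockout SB, all overlapping. Nfil3 ran from knockout SB (3.93 ± 1.18) and wild-type SB (5.07 ± 0.41), which overlapped, to knockout VILI (8.03 ± 0.48) and wild-type VILI (9.11 ± 0.66). Bhlhe40 stood at 10.97 ± 0.05 in wild-type SB and 11.04 ± 0.19 in knockout SB, then at 11.64 ± 0.25 in knockout VILI and 11.87 ± 0.37 in wild-type VILI, with overlap within each condition.

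Within groups, Dbp and Nfil3 mostly ran against each other. In 3 of 4 groups the 3 arrays stood in exactly opposite order for Nfil3 and Dbp, the exception being knockout SB, where knockout SB replicate 2 had both the lowest Nfil3 and the highest Dbp. Tef stood in the opposite order of Nfil3 in 2 groups, both of VILI, and in the same order in 1, knockout SB. Hlf was opposite in 1 group and the same in 1, and Bhlhe40 opposite in 2 and the same in 2. Wild-type VILI replicate 1 had the highest Nfil3 and the lowest Dbp, Tef and Hlf of all 12 arrays, and the highest Bhlhe40. Without this array the VILI differences in wild type were -3.04 for Dbp, -0.85 for Tef, -1.38 for Hlf, 3.70 for Nfil3 and 0.68 for Bhlhe40, all called. With 3 arrays a group these orders were not tested.

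**Figure D4:**
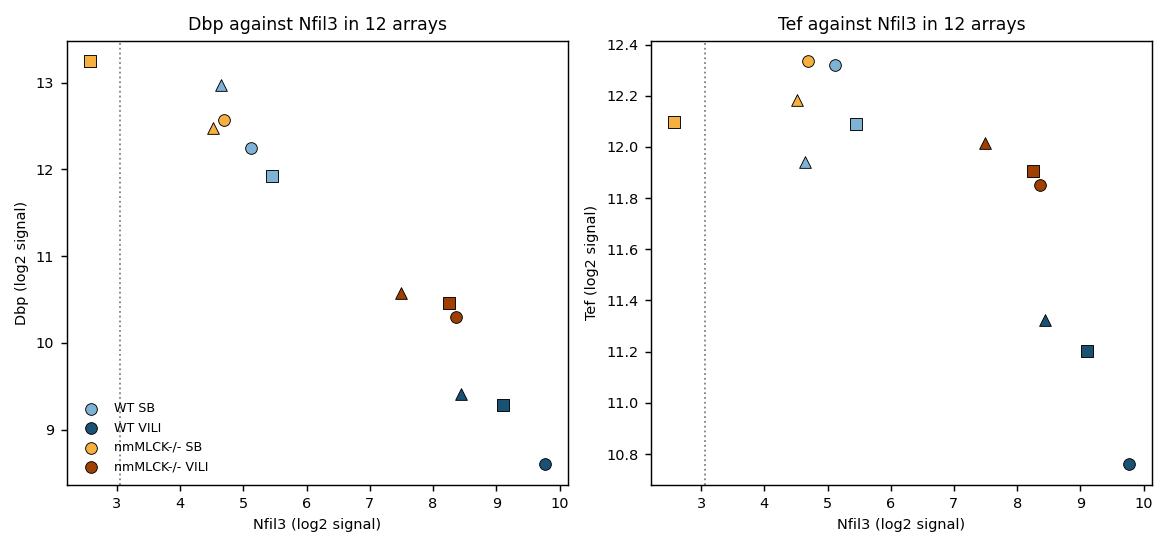
Log2 signal of Dbp (left) and Tef (right) against that of Nfil3 in the 12 arrays, coloured by group; circles, squares and triangles are replicates 1, 2 and 3, and the dotted line is the filter level. Arrays with high Nfil3 are those of VILI and have low Dbp, and wild-type VILI lies beyond knockout VILI on both axes for Dbp.

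The genes whose pattern over the 12 arrays was most like that of each member were found by the root mean square (RMS) difference of log2 signals after centring each gene on its mean. For Dbp, whose own RMS deviation was 1.52, they were Sox18, an endothelial transcription factor (0.524), 2810410L24Rik (0.543) and Smim5 (0.548), and with the sign turned Alpl, tissue-nonspecific alkaline phosphatase (0.331), AA467197 (0.382) and Mfsd2a (0.425). Tef was nearest to Myo9a, which encodes an unconventional myosin (0.0835), Tecpr2 (0.174) and Ankrd12 (0.180), against its own deviation of 0.466. Hlf was nearest to Ccdc28b (0.432), Tef (0.434) and 5031426D15Rik (0.437), against 0.858. Nfil3 was nearest to Dio2, the thyroid hormone activating deiodinase (0.555), Fosl1, an AP-1 subunit (0.647), and Prss22, a serine protease (0.746), and with the sign turned to Zfp467 (0.709), Ankrd63 (0.725) and Dbp (0.789), against 2.19. Bhlhe40 was nearest to Pdlim5 (0.137), the gap junction gene Gja1 (0.185) and Mbp (0.186), against 0.432. These are descriptions over arrays that share the 4 groups.

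Of 18 core clock genes, 16 were on the array and 13 were tested. In wild type 1 rose and 4 fell under VILI, where 6.34% and 9.03% of all genes did. The median difference of the 13 was 0.11, against -0.05 over all genes. Arntl, the activator whose protein drives the PAR bZIP genes, rose by 3.26 ± 0.36 (adjusted p = 0.000707), in the direction opposite to Dbp, Tef and Hlf. Its log2 signals were 4.59, 5.45 and 4.58 in wild-type SB, 8.70, 8.07 and 7.61 in wild-type VILI, 4.43, 3.60 and 4.46 in knockout SB and 6.10, 5.24 and 5.77 in knockout VILI. The genes that fell were Per3 (-2.41), Ciart (-1.43), Per2 (-0.95) and Nr1d2 (-0.69), 3 clock repressors and a paralogue of Nr1d1. Nr1d1 itself differed by 0.25 ± 0.31 and was not called.

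In the knockout Arntl rose by 1.54 ± 0.36 (adjusted p = 0.0160), and Per3 (-1.11) and Nr1d2 (-0.54) fell, with a list median of -0.02. Thus 1 of 13 rose and 2 fell, where 8.12% and 12.6% of all genes did. Arntl was lower in the knockout than in wild type under VILI, by 2.42 ± 0.36 with an adjusted p of 0.0408, the only listed clock gene called there, where 0.106% of all genes were. Omission of 1 array ended this call in 9 of 12 fits, with an adjusted p of up to 0.219 without knockout VILI replicate 2. Omission of 1 array also ended the knockout call of Per3 in 6 fits (adjusted p up to 0.114) and that of Arntl in 2 (up to 0.0585).

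**Figure D5:**
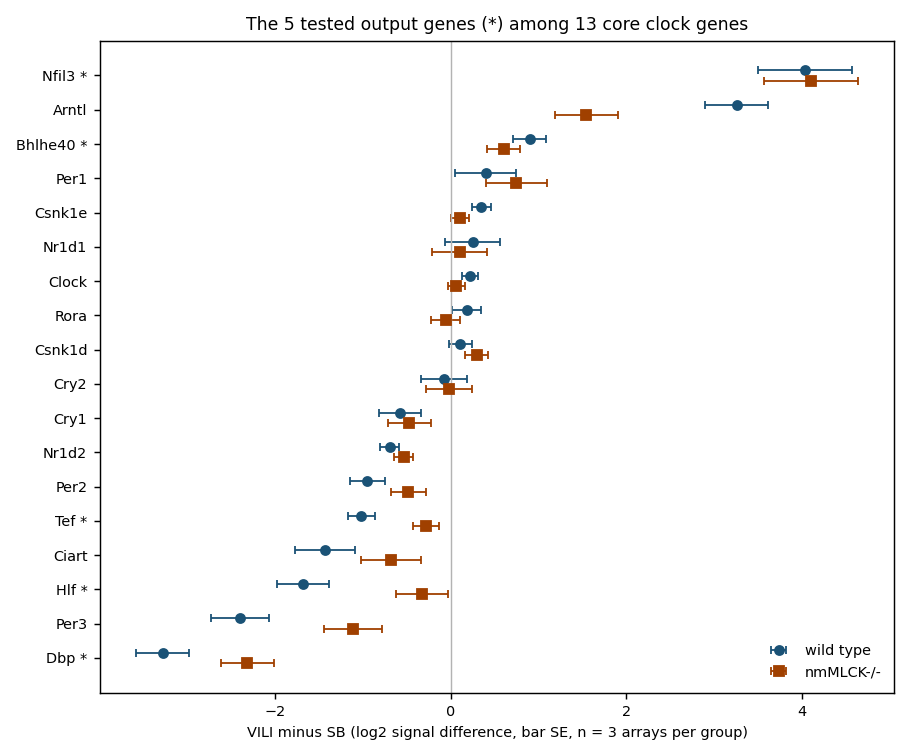
VILI minus SB (log2 signal difference, bars SE, n = 3 arrays per group) in wild type and knockout for the 5 tested output genes, marked with an asterisk, and 13 core clock genes, in order of the wild-type difference. Nfil3 and Arntl are at the top with 4.03 and 3.26 in wild type, and Dbp, Per3 and Hlf are at the bottom.

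Genes known from mice without Dbp, Tef and Hlf, mostly from liver, were examined next. Of 11 such genes 7 were tested, and 1 fell in each genotype, where 9.03% and 12.6% of all genes did, the cytochrome gene Cyp2b10, by 0.48 ± 0.09 in wild type (adjusted p = 0.00849) and by 0.29 ± 0.09 in the knockout (adjusted p = 0.0496). The second call did not survive in 9 of 12 such fits (adjusted p up to 0.134). The list medians were -0.34 and -0.16, against -0.05 over all genes in both. Alas1, the first enzyme of haem synthesis, was at -0.42 in wild type and -0.05 in the knockout, and Ppara at -0.34 and -0.49. Acot1 was at -0.62 and -0.98 and Aldh1a1 at -0.18 and -0.16, and none of these was called. Por and Nr1i3 are not among the 7.

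Of 9 clock-controlled outputs, all tested, 1 rose and 3 fell in wild type, where 6.34% and 9.03% of all genes did, and 1 rose in the knockout, where 8.12% did. Leo1, a subunit of the PAF1 complex, rose by 1.62 ± 0.11 and by 1.09 ± 0.11 (adjusted p = 7.4e-05 and 0.000472). Tspan4 fell by 0.90 ± 0.20 in wild type (adjusted p = 0.0161), and the others that fell there were Per2 and Ciart, which are also in the clock list. Leaving out 1 array ended the call of Ciart in 5 of 12 fits (adjusted p up to 0.0775) and that of Tspan4 in 2 (up to 0.0552). The list medians were 0.40 in both genotypes, against -0.05 over all genes.

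Hypoxia response genes were examined because Bhlhe40 and Bhlhe41 are hypoxia responsive. Of 10, 8 were tested; 4 rose in wild type, namely Adm (2.23 ± 0.40), Slc2a1 (0.91 ± 0.16), Ndrg1 (0.89 ± 0.13) and Ankrd37 (0.94 ± 0.26), and 3 in the knockout, namely Adm (1.36), Slc2a1 (0.88) and Ndrg1 (0.48), against 6.34% and 8.12% of all genes. Leaving out 1 array ended the knockout calls of Adm in 4 of 12 fits (adjusted p up to 0.131) and of Ndrg1 in 4 (up to 0.0900), and the wild-type call of Ankrd37 in 5 (up to 0.113). Vegfa, the best known target of the pathway, differed by -0.13 and -0.20 and was not called. List medians were 0.77 in wild type and 0.28 in the knockout, against -0.05 over all genes in both. Of 10 glucocorticoid response genes 1 rose in each genotype, the metallothionein gene Mt2, by 2.53 ± 0.74 (adjusted p = 0.0439) and 2.90 ± 0.74 (adjusted p = 0.0226), and the list medians were 0.51 and 0.70, beside the same shares and medians of all genes. Both list medians include the pair of SB arrays that stood apart in these same genes and were not computed without it. Relative to each gene's mean, the array medians of the list were 0.02, 0.26 and -0.78 in wild-type SB and 0.31, 0.34 and 0.20 in wild-type VILI. In the knockout they were 0.08, -1.14 and -0.08 under SB and 0.37, 0.31 and 0.19 under VILI. Omission of 1 array ended the Mt2 call in 8 of 12 fits in wild type (adjusted p up to 0.113) and in 4 in the knockout (up to 0.0674).

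Cell markers moved with VILI as well. The summed signal of the 6 neutrophil markers on the array (of 7, all past the filter) was 12.57 to 15.34 in wild-type SB, 14.88 to 15.63 in wild-type VILI, 11.93 to 12.33 in knockout SB and 15.08 to 15.81 in knockout VILI. The 5 ciliated cell markers had sums of 13.76 to 13.84, 13.07 to 13.35, 13.53 to 14.02 and 13.20 to 13.26 in the same order of groups, and the 5 endothelial markers 15.23 to 15.29, 14.70 to 14.89, 15.10 to 15.11 and 14.58 to 14.77. The endothelial markers did not move alike. Ramp2 and Tek were lower under VILI in both genotypes without overlap, while Pecam1 and Kdr overlapped with SB in both. Cdh5 overlapped in wild type and was higher in the knockout, at 12.08, 11.06 and 11.88 under SB and 12.14, 12.13 and 12.35 under VILI. All of these markers passed the filter and none was listed at 0. Their part in the fall of Dbp, Tef and Hlf and in the rise of Nfil3 was not tested. The neutrophil sum of 15.34 belongs to wild-type SB replicate 3, 1 of the pair of SB arrays that stood apart, and is within the range of the VILI arrays. Replicates 1 and 2 of wild-type SB had neutrophil sums of 12.57 and 12.98. Between the genotypes under VILI, the ranges of the neutrophil, ciliated and endothelial sums overlapped. So did those of the alveolar type 1 and type 2, T and NK cell, B cell, erythroid and skeletal muscle markers. The alveolar macrophage sums did not overlap, at 14.60 to 14.96 in wild type and 14.50 to 14.56 in the knockout. Nor did the platelet sums (11.23 to 11.75 and 11.13 to 11.21) or the club cell sums (16.96 to 16.98 and 16.99 to 17.02). Their part in the genotype differences was not tested.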

How the data were processed

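Each deposited value is the log2 signal of 1 probe set on 1 array, normalized by the authors; per the submitters' processing notes MAS5 and GCRMA were used, with no versions. GCRMA shrinks differences among dim signals. A genome build for the annotation was not found in the labels or headers. Of 45037 probe sets, 34945 carried 1 gene symbol, 932 several and 9160 none, and 34741 matched RefSeq by gene number. Probe sets with a mean under the 40th percentile were left out, which kept 22443. The probe set with the highest mean stood for each of 12309 genes.

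Groups were compared with limma 3.58.1 in R 4.3.3 (lmFit and eBayes over all 12 arrays, 4 group means), at an adjusted p under 0.05. Other probe sets were tested in the same model over the 22443 probe sets. Tests and scripts were tested on simulated data. The text names all member probe sets, the 3 genes most like each member, and Mylk. From each list it names some or all of the up to 4 genes per comparison with the smallest p. Ciart, Vegfa and Nr1d1, and genes called outside this rule, were chosen after their values were seen. Summed marker signals are log2 of the sum of linear signals. The alternatives were other scalings, filters, probe set rules, priors and weights, a replicate block and the omission of arrays. The members and lists were chosen with earlier results of these data known. The series text speaks of animals in groups of 3, so arrays were taken as separate mice; their number limits the precision.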

Additional observations from a re-analysis of the deposited data

Results flagged for a closer look

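At Tef probe set 1438033_at the VILI arrays of wild type all lay below their SB mean and those of the knockout all lay above theirs. The VILI response was thus 1.61 higher on the log2 scale in the knockout than in wild type, the only one of 9 tested probe sets with such opposite signs. By limma the difference of responses had an unadjusted p of 0.0224 and an adjusted p of 0.964, and the interval ran from 0.28 to 2.94. The sign in the knockout rests on knockout SB replicate 2, at 9.76. Without that array the knockout response was -0.041.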

How the results depend on the processing

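In the 24 alternatives the VILI calls of Dbp, Tef, Hlf and Bhlhe40 in wild type and of Dbp in the knockout kept their direction and call, as did those of Nfil3 in the 23 that tested it; the filter at the 60th percentile left Nfil3 out. Bhlhe40 in the knockout lost its call in 13 of 24. Members called between genotypes under VILI rose from 0 to 1 without both SB arrays that stood apart and to 3 with array weights, whose fit stopped short of its convergence tolerance. All genes called there rose from 13 to 28 and to 852. Members called for the difference of responses rose to 1 with array weights, and all genes called rose from 0 to 171. Of the 4 other probe sets, 2 were called in wild type and 3 in the knockout; array weights gave 4 in wild type, 3 between genotypes under VILI and 1 for the difference of responses, and leaving out both SB arrays gave 1 in the knockout. Leaving out 1 array gave 2 to 4 in wild type and 1 to 3 in the knockout. The share of all probe sets called was not computed in these alternatives.

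Signs turned only in differences that were never called. Tef under SB was -0.14 with the mean of its probe sets and -0.065 with array weights, and Bhlhe40 under SB was -0.013 without both SB arrays and -0.037 to 0.13 when 1 array was left out. The Nfil3 difference of responses was -0.61 to 0.45 when 1 array was left out, -0.39 without both SB arrays and -0.14 with array weights. Tef 1438033_at in the knockout was -0.041 to 0.83, -0.041 and -0.10 in these settings. When 1 array was left out, Tef 1450184_s_at ran from -0.83 to 0.18 between genotypes under VILI and from -0.45 to 0.56 for the difference of responses.

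The replicate numbers do not pair the samples: same-number correlations ran from -0.63 to 0.40 with 3 of 18 over 0.1, and 9 of 36 best matches had the same number. With the replicate block, Bhlhe40 in the knockout had an adjusted p of 0.0526 and the Arntl call between genotypes was lost, and 1433, 1884, 0, 2 and 0 genes were called in the 5 comparisons. Over all alternatives these counts ran from 845 to 4244, 1232 to 5522, 0 to 102, 2 to 852 and 0 to 171. The cause of these changes was not tested. Signals under the filter level, as for Bhlhe41, give no direction.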

Other observations

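Other bZIP genes were examined beside the members. Of 6 genes of the CEBP family, 5 were tested and 1 fell in each genotype, where 9.03% and 12.6% of all genes did. It was the stress factor gene Ddit3, lower by 0.50 ± 0.10 in wild type (adjusted p = 0.0113) and by 0.54 ± 0.10 in the knockout (adjusted p = 0.00697). Cebpb and Cebpd, both known from acute inflammation, were at 0.41 and 0.56 in wild type and at 0.66 and 0.62 in the knockout, none of them called. Cebpg was at -0.59 and -0.47, also not called (adjusted p = 0.0753 and 0.117). The list medians were -0.16 and -0.21, against -0.05 over all genes.

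Of 9 immune genes linked to NFIL3, 3 were tested. In wild type 1 rose and in the knockout 0, where 6.34% and 8.12% of all genes did. Id2, which encodes an inhibitor of basic helix-loop-helix factors, rose in wild type by 0.78 ± 0.21 (adjusted p = 0.0344), a call that 6 of 12 omissions of 1 array ended, and was at 0.31 in the knockout (adjusted p = 0.318). The cytotoxic granule genes Prf1 and Gzmb were at 0.20 and 0.57 in wild type and at 0.71 and 0.56 in the knockout, with none called. The T and NK cell markers, 4 of 6 past the filter, summed to 6.99 to 7.94 in wild-type SB and 7.81 to 8.67 in wild-type VILI, which overlap, and to 6.74 to 7.48 in knockout SB and 7.77 to 8.01 in knockout VILI, which do not.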
